A study of Mus musculus with 8 samples.

Results

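MHC class II presentation genes were examined in mouse skin on 8 one-colour arrays. The group comprised 9 genes chosen by name: the chains H2-Aa, H2-Ab1 and H2-Eb1, the invariant chain Cd74, the protease Ctss, the peptide-loading chaperone genes H2-DMa, H2-DMb1 and H2-Oa, and the regulator Ciita. All 9 were found on the array by RefSeq accession and passed the filter on dim probes, among 14774 genes with a tested probe. All mice were of strain C57BL/6N, and the arrays covered Cchcr1 mutants with hair loss (n = 2), the normal skin of such mutants (n = 4) and wild type animals with normal skin (n = 2). The mutants were made by genome editing with CRISPR/Cas9 to model the patchy hair loss of alopecia areata, a disease in which hair follicles are attacked by immune cells. The labels used here give neither the edited allele nor age, and do not say whether 2 samples came from separate animals, so p-values measure the spread between these samples. Sample titles carry a number that the labels do not explain. Hair loss replicate 1 and mutant normal skin replicates 1 and 2 were titled Mutant097, hair loss replicate 2 and mutant normal skin replicates 3 and 4 Mutant113, and both wild type samples Wild001, so in each comparison with wild type the genotype and the title number cannot be told apart.

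MHC class II molecules are dimers of an alpha and a beta chain that show peptides from engulfed proteins to CD4+ T cells. New dimers are plugged by the invariant chain, which proteases of the endosome trim, and the chaperone DM then exchanges the remnant for a peptide while the chaperone DO restrains DM. In skin the molecules are borne mainly by Langerhans cells of the epidermis and by dendritic cells and macrophages of the dermis. The coactivator encoded by Ciita switches the genes of class II chains on together. It acts through factors that sit on short conserved boxes just before each of them. RFX binds the X box and NF-Y the Y box.

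Because the chain genes share this control, RefSeq promoter windows of the members (assembly GRCm38.p6, 250 bases before to 50 after each start) were searched on both strands. The search was for GNAAC, the start of an X box, followed by ATTGG, the core of a Y box, 30 to 33 bases further on. The letters and the spacing were chosen after these sequences were seen, and at that spacing the motifs do not overlap. A window was given for 6 members, and 4 of them held the pair. Among all 32851 windows, 0.712% held it, and 37.4% held ATTGG alone. The stretches around the pair are shown here because 4 of the 6 members with a window held it. They run 5′ to 3′ on the strand of the gene, with both motifs in capitals:
H2-Aa: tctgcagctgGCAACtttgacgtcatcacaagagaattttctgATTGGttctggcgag
H2-Eb1: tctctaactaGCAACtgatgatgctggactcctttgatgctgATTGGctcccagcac
H2-DMb1: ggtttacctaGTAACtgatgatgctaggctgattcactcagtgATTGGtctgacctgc
H2-Oa: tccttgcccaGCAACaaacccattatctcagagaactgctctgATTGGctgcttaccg

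These stretches lie upstream of the genes, at chr17:34287857-34287914 (minus strand) for H2-Aa, chr17:34305766-34305822 (plus) for H2-Eb1, chr17:34153087-34153144 (plus) for H2-DMb1 and chr17:34092293-34092350 (plus) for H2-Oa. The Y box letters begin 48, 59, 61 and 43 bases before the start in H2-Aa, H2-Eb1, H2-DMb1 and H2-Oa. The windows of H2-DMa and Ctss did not hold the pair in these letters. Of related genes outside the 9, the windows of H2-Ob and H2-Eb2 held it and that of H2-DMb2 did not. The H2 members and Cchcr1 all lie on chromosome 17, Ciita lies on 16 and Ctss on 3.

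Levels are the log2 of the processed intensity minus the 75th percentile of that array, so that 0 is the level of that percentile. The percentile ran from 83.1 to 211 intensity units, and each array had between 25421 and 30205 probes well above background. All arrays shared 1 slide, whose row 1 carried the hair loss samples beside Mutant097 normal skin, while Mutant113 normal skin and the wild type were in row 2. Of the 9 genes, 8 were well above background on all 8 arrays, and Ciita was so on 6. Basal keratinocyte markers were well above background on every array (4 of 4 genes). Intensities of different probes cannot be compared, so each gene is followed across samples and not ranked against the others.

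The first question was whether skin of the mutants differed from wild type where no hair had been lost. It was lower in 8 of the 9 genes, by 0.39 to 1.05 on the log2 scale, and H2-DMb1 alone lay above wild type, by 0.04. The widest gap was that of H2-Aa, 2.07-fold lower in the mutants. None of these differences passed the test. Limma called 0 of the 9 genes at an adjusted p under 0.05, against 211 of 30417 probes (0.694%), and 1 of the 9, H2-Aa, had an unadjusted p under 0.05. The median difference of the 9 genes was -0.53, beside -0.04 over all probes tested, of which 53.6% were lower. With a bulk extract of skin, fewer cells of a type and less RNA per cell cannot be told apart.

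H2-Aa encodes the alpha chain of the A molecule. Its level, given here and below in order of replicate number, was 4.23 and 4.58 in wild type, 3.11, 3.59, 3.22 and 3.50 in normal skin of the mutants, and 2.80 and 3.88 in hair loss. All 6 mutant arrays lay below both wild type arrays. Wild type averaged 4.40 ± 0.25 (SD, n = 2), while normal skin of the mutants averaged 3.36 ± 0.23 (SD, n = 4) and hair loss 3.34 ± 0.76 (SD, n = 2). Mutant normal skin was lower than wild type by 1.05 (difference -1.05, SE 0.31, 95% interval -1.78 to -0.32, limma adjusted p 0.174). The difference was -1.05 in the normal skin of Mutant097 and -1.04 in that of Mutant113.

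H2-Ab1 encodes the beta chain that pairs with it. Its brighter probe read 8.29 and 8.07 in wild type, 7.67, 8.33, 7.41 and 7.75 in normal skin of the mutants, then 7.44 and 7.80 in hair loss. The groups overlapped, because mutant normal skin replicate 2 was the highest array of all. The difference of mutant normal skin from wild type was -0.39 (SE 0.27, limma adjusted p 0.491), and the other probe of the gene also gave -0.39.

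H2-Eb1, the beta chain of the E molecule, was arranged in a similar way. Wild type stood at 7.89 and 7.94, mutant normal skin at 7.26, 7.95, 7.05 and 7.30, and hair loss at 7.02 and 7.61. Mutant normal skin replicate 2 was level with wild type and the other 3 lay lower, for a difference of -0.53 (SE 0.28, limma adjusted p 0.386).

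Cd74, the invariant chain that accompanies new dimers, gave 7.29 and 7.20 in wild type, 6.34, 6.97, 6.41 and 6.77 in normal skin of the mutants, and 6.22 and 6.93 in hair loss. As for H2-Aa, every mutant array lay below both wild type arrays. The difference of mutant normal skin from wild type was -0.62 (SE 0.27, limma adjusted p 0.292), a 1.54-fold gap. Ctss encodes cathepsin S, the protease that trims the invariant chain in many antigen-presenting cells. It read 4.47 and 4.98 in wild type, 4.25, 4.56, 4.26 and 3.97 in normal skin of the mutants, then 4.37 and 4.98 in hair loss. Its groups overlapped, with a difference of -0.46 (SE 0.26, limma adjusted p 0.407) between mutant normal skin and wild type.

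The chaperone genes came next. H2-DMa, the alpha chain of DM, read 2.07 and 2.49 in wild type, 1.24, 1.69, 1.37 and 1.70 in normal skin of the mutants, then 0.71 and 1.94 in hair loss. All mutant arrays were below wild type, and mutant normal skin differed by -0.78 (SE 0.34, limma adjusted p 0.298). H2-DMb1, a beta chain of DM, read 4.12 and 4.25 in wild type, 3.90, 4.62, 4.08 and 4.30 in normal skin of the mutants, then 4.16 and 4.49 in hair loss. Its groups overlapped fully, and the difference was 0.04 (SE 0.23, 95% interval -0.50 to 0.58, limma adjusted p 0.944), a sign that turned to -0.012 under quantile normalization. The gene has a near-identical neighbour, H2-DMb2, so its probe may take up signal from both. H2-Oa, the alpha chain of DO, read -0.37 and -0.58 in wild type, -1.02, -0.32, -1.38 and -0.80 in normal skin of the mutants, then -1.48 and -0.76 in hair loss. Mutant normal skin replicate 2 was the highest array, and the difference of mutant normal skin from wild type was -0.41 (SE 0.32, limma adjusted p 0.547).

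Ciita, the regulator, lay near background. It read -1.70 and -2.64 in wild type, -3.80, -2.64, -3.05 and -2.82 in normal skin of the mutants, then -3.73 and -2.97 in hair loss. Mutant normal skin replicate 1 and hair loss replicate 1, the lowest arrays, were not well above background, so these values are close to the detection limit. The difference of mutant normal skin from wild type was -0.91 (SE 0.41, limma adjusted p 0.307).

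**Figure D1:**
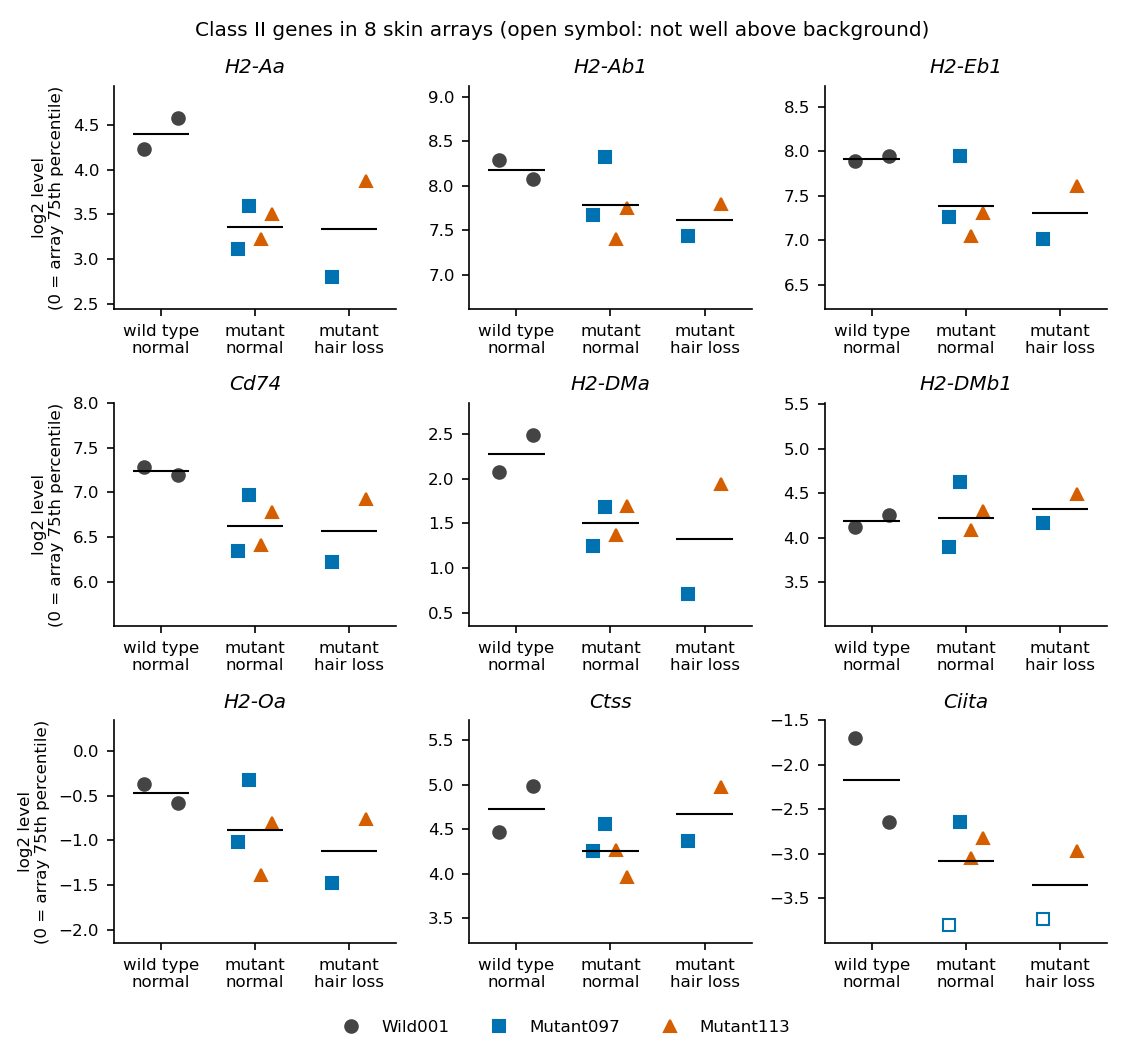
Log2 level (y axis, 0 is the 75th percentile of the array) of the 9 genes in the 3 skin groups, with 1 symbol per array, a shape and colour per title number, and a bar at the group mean. Both wild type arrays lie above all mutant arrays for H2-Aa, Cd74 and H2-DMa, and the groups overlap for H2-DMb1 and Ctss.

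In 3 of the 9 genes (H2-Aa, Cd74 and H2-DMa) all 4 mutant normal skin arrays lay below both wild type arrays, and 14.8% of all probes did so. The median of the 9 differences was -0.32 for the normal skin of Mutant097 and -0.65 for that of Mutant113. The log ratio of H2-DMa to H2-DMb1 was lower in mutant normal skin than in wild type by 0.82 (difference -0.82), and that of H2-Aa to H2-Ab1 by 0.66 (difference -0.66). These ratios were picked after the values had been seen, so they are given as a description with no test. They do not depend on the scaling of an array.

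Hair loss skin was next set against wild type, a comparison that shares its wild type arrays with the previous one. Hair loss arrays were in slide row 1 and wild type arrays in row 2, so these groups also differed in row. Again 8 of 9 genes were lower, with a median of -0.65 (all probes -0.06, 54.2% lower). Limma called 0 of 9, against 432 probes (1.42%). In 7 of the 9 genes both hair loss arrays lay below both wild type arrays, where 28.5% of all probes did so; H2-DMb1 and Ctss overlapped. Among genes well above background on all arrays the widest gaps were those of H2-Aa (-1.07, SE 0.36, limma adjusted p 0.133) and H2-DMa (-0.96, SE 0.40, limma adjusted p 0.189). Ciita differed by -1.18 (SE 0.47, limma adjusted p 0.176), but 1 of its 2 hair loss arrays was not well above background, and the value ran from -1.65 to -0.45 over the alternatives tried. These 3 genes had an unadjusted p under 0.05. Cd74 differed by -0.67, H2-Oa by -0.65, H2-Eb1 by -0.61 and H2-Ab1 by -0.56, with limma adjusted p from 0.225 to 0.318. Ctss (-0.05) and H2-DMb1 (0.14) were close to wild type. Without hair loss replicate 1 the median was -0.32, and without hair loss replicate 2 it was -1.004.

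The lesion itself was compared by setting hair loss against normal skin of the mutants. The class II genes lay on both sides of their level in normal skin. Of the 9 genes 7 were lower and 2 higher, the median was -0.08, and the differences ran from -0.27 for Ciita to 0.41 for Ctss (95% interval -0.20 to 1.02). Limma called 0 of 9 and 0 of 30417 probes (0%), with an adjusted p of 0.999 for each of the 9, and 0 of 9 had an unadjusted p under 0.05. The smallest adjusted p of any probe was 0.710, and 1582 probes had an unadjusted p under 0.05. In 0 of 9 genes did both hair loss arrays lie below all normal skin arrays, where 6.68% of all probes did. The intervals are wide. That of H2-Aa (-0.02) ran from -0.75 to 0.71, so differences within that range were not excluded by these arrays.

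**Figure D2:**
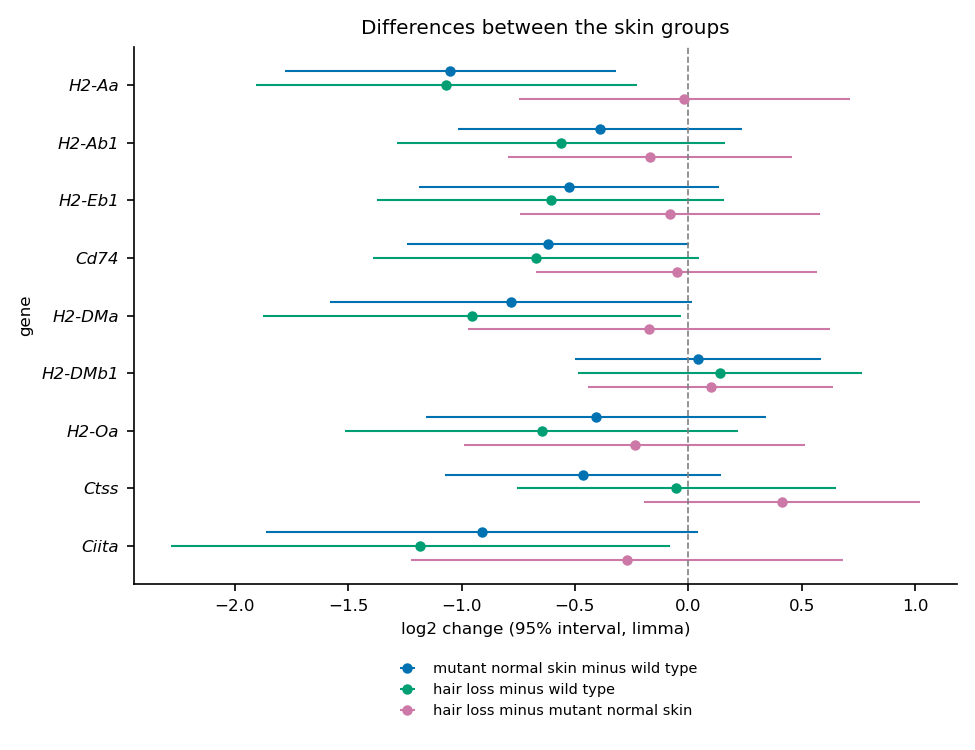
Log2 differences of the 9 genes (points) with their 95% intervals from limma (lines) for the 3 comparisons of skin groups. Points of both comparisons with wild type lie left of 0 except for H2-DMb1, and those of hair loss against mutant normal skin lie between -0.27 and 0.41.

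Behind the small average stood opposite values in the mutants of different title number. Within Mutant097 the hair loss array was below the mean of its normal skin arrays in 9 of 9 genes, with a median of -0.55. Within Mutant113 it was above in 8 of 9, with a median of 0.34, and Ciita was at -0.03. In 6 genes (H2-Aa, H2-Ab1, H2-Eb1, Cd74, H2-DMa and H2-Oa) the hair loss array was below both normal skin arrays of Mutant097 and above both of Mutant113, as it was for 17.4% of all probes. Over all probes the medians were -0.03 within Mutant097 and 0.03 within Mutant113. H2-DMa was at -0.76 within Mutant097 and 0.41 within Mutant113, H2-Oa at -0.81 and 0.33, and H2-Aa at -0.55 and 0.52. Ctss was nearly level within Mutant097 (-0.04) and higher within Mutant113 (0.86, limma adjusted p 0.936).

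The difference between the title numbers was tested directly as an interaction. Limma called 0 of 9 genes and 0 of 30417 probes (0%, with 2889 at an unadjusted p under 0.05), and the adjusted p of the 9 ran from 0.518 to 0.899. The widest interaction was that of H2-DMa (1.17, SE 0.45, 95% interval 0.04 to 2.29), which alone had an unadjusted p under 0.05. Each title number had 1 hair loss array, so both effects rest on single arrays, and the errors and p come from the spread of the normal skin pairs, which the lone arrays are assumed to share. The Mutant097 arrays were all in slide row 1. For Mutant113 the hair loss array was in row 1 and the normal skin arrays in row 2, so lesion and row cannot be told apart there. The hair loss array of Mutant097 had the fewest probes well above background (25421) and that of Mutant113 the most (30205). The title numbers also differed in sex-linked transcripts. Xist, which is transcribed from an inactive X chromosome, was well above background on the 3 arrays of Mutant113 (1.09, 1.12 and 1.15) and on no other, and the Y-linked gene Ddx3y was well above background on all arrays but those 3. The part of these values in the result was not tested.

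**Figure D3:**
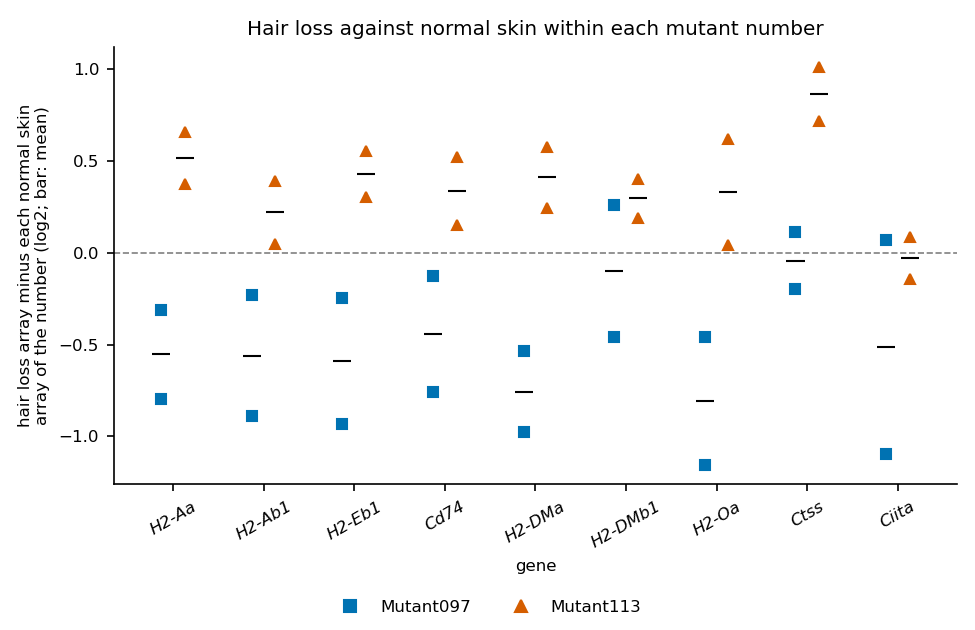
Log2 level of the hair loss array minus that of each normal skin array with the same title number (symbols) and their mean (bars) for the 9 genes. For 6 genes all Mutant097 values lie below 0 and all Mutant113 values above 0.

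In normal skin alone, the mutants of different number were closer in these genes. Mutant113 minus Mutant097 ranged from -0.43 for H2-Eb1 to 0.28 for Ciita, with a median of -0.07 and 6 of 9 lower. Limma called 0 of 9, against 81 probes (0.266%). Samples with the same number were told apart by a title letter, A or B, whose meaning the labels do not give. The A sample of Mutant097 exceeded the B sample in 9 of 9 genes, by 0.31 for Ctss to 0.72 for H2-DMb1 among genes above background on both and by 1.16 for Ciita, whose B sample was not well above background, with a median of 0.66, while the median over all probes was 0.02. For Mutant113 it did so in 8 of 9 (median 0.28, all probes -0.01), and for Wild001 in 5 of 9 (median 0.05, all probes 0.01). The median gap of 0.66 between the Mutant097 normal skin samples was wider than the median gap between mutant normal skin and wild type (-0.53).

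Across the 8 arrays the genes varied together to different degrees, as described by Pearson's r over points that share their array. The pairs H2-Aa and H2-DMa (0.977), H2-Ab1 and H2-Oa (0.971) and H2-Ab1 and H2-Eb1 (0.958) were closest. H2-DMb1 followed the other 8 least, with r from 0.297 to 0.521. The mean of H2-Aa, H2-Ab1, H2-Eb1 and Cd74 was 6.92 and 6.95 in wild type, 6.09, 6.71, 6.02 and 6.33 in normal skin of the mutants, then 5.87 and 6.55 in hair loss. Among 5779 genes well above background on all arrays, the 10 most like this mean were Gsdmd (r = 0.993 over 8 arrays), Rnf13 (0.990), Chst7 (0.990), Tnfsfm13 (0.981), Mcub (0.975), Sestd1 (0.973), B4galt5 (0.968), Cd48 (0.967), Mmrn2 (0.967) and Parp14 (0.965). Gsdmd encodes the pore-forming protein gasdermin D, Cd48 a surface glycoprotein of leukocytes, and Mmrn2 an extracellular matrix protein of endothelium. With so many candidates and 8 arrays, correlations of this height are a description.

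Other genes of the pathway lay on both sides of wild type. Of 12 further genes for processing and loading, 10 were tested. In mutant normal skin 3 were higher and 7 lower than in wild type, with a median of -0.18 and 0 called. The furthest from wild type were H2-DMb2 (-1.18, well above background on 4 arrays) and the protease gene Ctsh (-1.09, limma adjusted p 0.225). In hair loss against mutant normal skin 8 of 10 were higher and 2 lower, with a median of 0.34 and 0 called, where the 9 class II genes had a median of -0.08.

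Of 10 factors that act on class II promoters or on Ciita, 9 were tested, and Rfx5, an RFX subunit, was not well above background on any array. Irf4, a transcription factor of dendritic and lymphoid cells, was called. It stood at 1.72 in wild type (mean, n = 2), 0.41 in mutant normal skin (n = 4) and 0.05 in hair loss (n = 2), and it was lower in hair loss than in wild type by 1.67 (difference -1.67, SE 0.25, limma adjusted p 0.0297). The call held under 11 of 17 alternatives. It was lost without wild type replicate 1 (adjusted p 0.161), wild type replicate 2 (0.0690), hair loss replicate 1 (0.166) or mutant normal skin replicate 4 (0.0537), with no filter (0.0841) and with 1 mean per number and group (0.2315). Between mutant normal skin and wild type its difference of -1.31 had a limma adjusted p of 0.0520. The remaining 8 regulators were not called, and 6 of the 9 were higher and 3 lower in mutant normal skin than in wild type.

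Interferon gamma, made by T and NK cells, induces Ciita. Of 8 genes of this route 1 was higher and 7 lower in mutant normal skin than in wild type, with a median of -0.17 and 0 called. Ifng itself differed by -0.76 (well above background on 6 arrays). In hair loss against mutant normal skin 4 were higher and 4 lower. Of 5 costimulatory genes, whose products T cells need beside the class II signal, 1 was higher and 4 lower in mutant normal skin than in wild type, and 0 were called. Cd86 differed by -0.43 and Icam1 by -0.39.

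Markers of cells that bear class II moved with part of the pattern. All 8 macrophage markers tested were lower in mutant normal skin than in wild type, with a median of -1.08 and 0 called. C1qa, a complement component made by macrophages, differed by -1.24 (limma adjusted p 0.0509), and Cd163, a scavenger receptor, by -1.13. The summed linear level of the 8, in units of the 75th percentile, was 157 to 163 in wild type, 65.6 to 110 in mutant normal skin and 74.2 to 89.6 in hair loss, without overlap between wild type and mutants. The sum of the 9 class II genes did overlap between wild type (743 to 770) and mutant normal skin (436 to 758), and was 425 to 612 in hair loss. Within the title numbers the macrophage markers also took opposite medians, -0.35 in Mutant097 (6 of 8 lower) and 0.37 in Mutant113 (7 of 8 higher). So did lists of non-immune cells. Fibroblast markers were at -0.54 (6 of 6 lower) and 0.25 (6 of 6 higher), and adipocyte markers at -0.38 (4 of 4 lower) and 0.28 (4 of 4 higher). Hair shaft keratins went the other way, at 4.03 in Mutant097 (5 of 5 higher) and -0.41 in Mutant113 (5 of 5 lower). Not all lists of cells that bear class II had opposite medians by number. Dendritic cell markers had medians above 0 in both, at 0.26 in Mutant097 (4 higher, 3 lower) and 0.56 in Mutant113 (6 higher, 1 lower). The medians of the 2 Langerhans cell markers were 0.28 and 0.30. In Mutant097 these 2 markers went opposite ways (-0.50 and 1.07), and in Mutant113 both were higher (0.15 and 0.45). Pan-leukocyte markers were at -0.01 and 0.57, and the 3 B cell markers tested at -0.10 and 0.32. All 6 pan-leukocyte markers were lower in mutant normal skin, with a median of -0.50, and their sum was 42.3 to 46.2 in wild type, 27.7 to 40.7 in mutant normal skin and 36.3 to 53.6 in hair loss. The part of these lists in the class II values was not tested.

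Markers of other immune cells were mixed. Cd207, the langerin gene, taken here as a Langerhans cell marker, was higher in mutant normal skin by 0.36 (limma adjusted p 0.547). It differed by 0.19 in hair loss from wild type. Epcam, an adhesion gene of Langerhans cells and of epithelium, differed by 0.90 and 1.65 in the same comparisons. The summed level of these 2 tested Langerhans cell markers was 3.36 to 5.12 in wild type, 4.97 to 7.52 in mutant normal skin and 7.62 to 8.37 in hair loss, and the third, Ly75, was not well above background on any array. Of 7 dendritic cell markers 2 were higher and 5 lower in mutant normal skin, with a median of -0.05 and sums of 17.4 to 18.3 in wild type, 9.10 to 18.5 in mutant normal skin and 10.4 to 14.4 in hair loss, while Xcr1 was not well above background on any array. Of 7 B cell markers 3 were tested and were lower in mutant normal skin, with 0 called, and Ms4a1, Blk and Pax5 were not well above background on any array; the sums were 1.06 to 1.85 in wild type, 0.909 to 1.33 in mutant normal skin and 1.17 to 1.31 in hair loss. Of 6 T cell markers 4 were higher and 2 lower in mutant normal skin, with sums of 8.60 to 11.8 in wild type, 8.81 to 13.2 in mutant normal skin and 9.74 to 12.1 in hair loss.

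**Figure D4:**
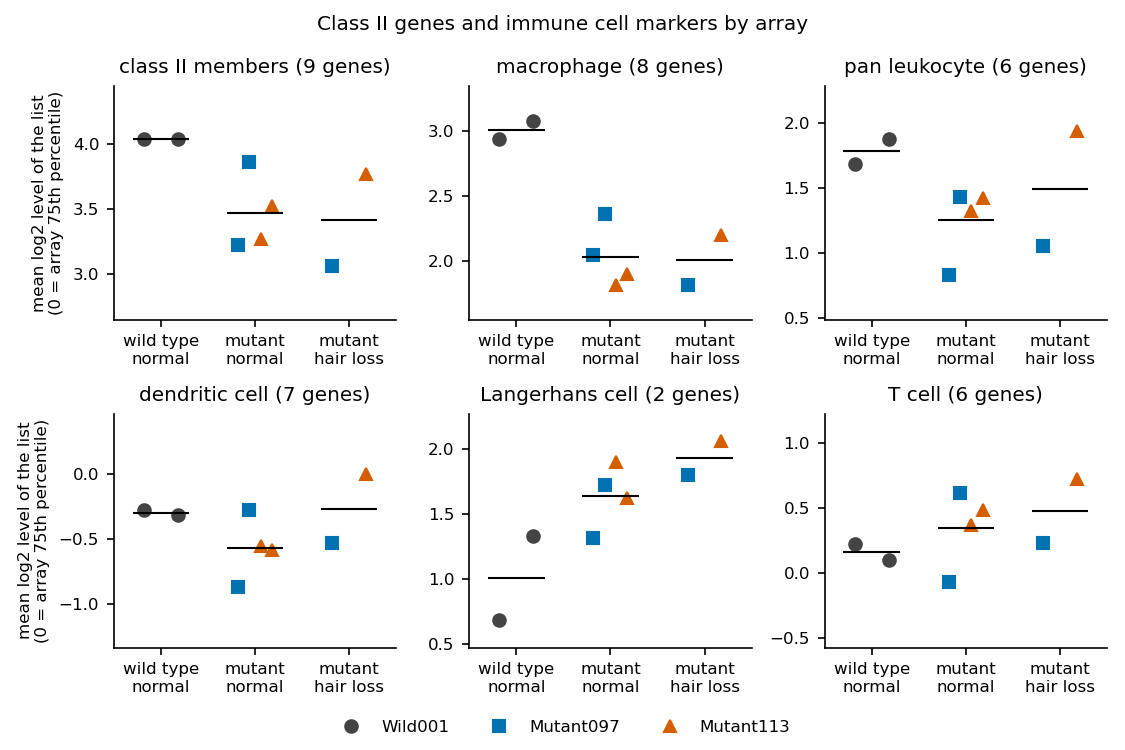
Mean log2 level (y axis, 0 is the 75th percentile of the array) of the 9 class II genes and of 5 lists of immune cell markers, with 1 symbol per array and a bar at the group mean. On this mean log2 scale wild type arrays lie above all mutant arrays for the class II and macrophage lists, while the summed class II levels overlap. In the Langerhans cell list hair loss replicate 2 is the highest array (2.06), while hair loss replicate 1 (1.80) lies below mutant normal skin replicate 3 (1.90). Of its 2 genes, Epcam differed in hair loss from wild type by 1.65 and Cd207 by 0.19.

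Markers of non-immune cells differed as well. All 5 hair shaft keratin genes tested were higher in mutant normal skin than in wild type, 4 of them called (Krt31, Krt34, Krt35 and Krt86). Their summed level was 1.27 to 1.94 in wild type, 115 to 691 in mutant normal skin and 437 to 1241 in hair loss. All 4 calls were lost without wild type replicate 2 (limma adjusted p 0.0759 to 0.103) and with 1 mean per number and group (0.440 to 0.578), those other than Krt35 without wild type replicate 1 (0.0957 to 0.158), and those of Krt86 (0.0644) and Krt31 (0.0748) without mutant normal skin replicate 4. Skeletal muscle markers were lower in 5 of 5 genes in each group comparison, with medians of -0.66 in mutant normal skin and -2.48 in hair loss against wild type, and -1.58 in hair loss against mutant normal skin. Their summed level was 969 to 1006 in wild type, 376 to 985 in mutant normal skin and 158 to 482 in hair loss. Mylpf, a myosin light chain gene, was called in hair loss against wild type (-2.60, SE 0.46, limma adjusted p 0.0466), a call that held under 8 of 17 alternatives and was lost without any 1 of the 4 wild type and hair loss arrays (0.0854 to 0.175) or without mutant normal skin replicates 1 (0.0641) or 3 (0.0505), with no filter (0.0948), with the slide row as a block (0.111, difference -1.67) and with 1 mean per number and group (0.2315). All 6 fibroblast markers were lower in mutant normal skin, with a median of -0.98, and Dpt, which encodes the matrix protein dermatopontin, was called (-1.63, limma adjusted p 0.0403), a call that held under 9 of 17 alternatives. It was lost when any of the 6 normal skin arrays was left out, with no filter (0.0958) and with 1 mean per number and group (0.645). Whether these differences in tissue bear on the class II levels was not tested.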

How the data were processed

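RNA of 8 mouse skin samples had been hybridised to Agilent one-colour arrays. Per the file headers, the deposited scanner files hold spot intensity, corrected for background by Agilent Feature Extraction 11.5.1.1, as named in the submitters' processing notes. The authors also deposited a table of log2 values, which differed from the log2 processed intensity by 1 constant per array, to within 2.43e-06 over 55603 probes. Spots flagged as non-uniform or as outliers were left out, spots of a probe were averaged, and log2 intensity was scaled to the 75th percentile of each array. The 30417 probes well above background on at least 2 arrays were tested. Symbols came from a RefSeq table by accession (19195 probes), and a gene was read from its brightest probe. The array design and the RefSeq table use different mouse assemblies, so coordinates are given for RefSeq promoter stretches only.

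Limma 3.58.1 in R 4.3.3 fitted 1 model of the 3 groups to all 8 arrays (5 residual and 2.71 prior degrees of freedom), and a model of the 5 combinations of group and title number for comparisons within and between numbers (3 and 2.51). Tests were two-sided, with Benjamini-Hochberg adjustment over all probes tested and a threshold of 0.05, and were checked on simulated data. With 2 to 4 arrays per group, their number limits the precision. The members and the gene lists were chosen with earlier results of these data known. All 9 members were named, with genes of each list called in any group comparison (at most 5), otherwise up to 2 with the largest change, and the 10 genes most correlated with the mean of 4 chains (SD of at least 0.3). The values of 1 list gene named by this rule are not reported here. The alternatives were other background correction, normalization, filters, blocks, probe rules, the authors' table and the omission of each array.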

Additional observations from a re-analysis of the deposited data

Results flagged for a closer look

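In 6 genes the hair loss array lay below both normal skin arrays of Mutant097 and above both of Mutant113, as it was for 17.4% of all probes. The effect in Mutant113 exceeded that in Mutant097 by 1.17 for H2-DMa (SE 0.45), 1.14 for H2-Oa (SE 0.55), 1.07 for H2-Aa (SE 0.44), 1.02 for H2-Eb1 (SE 0.47), 0.78 for H2-Ab1 (SE 0.48) and 0.78 for Cd74 (SE 0.47) on the log2 scale. Limma's test of these interactions passed in none of the 6, with adjusted p from 0.518 to 0.687. Each title number had 1 hair loss array, so the values rest on single arrays, assumed to vary like the normal skin pairs. In Mutant113 the hair loss array and the normal skin arrays were also in different slide rows.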

How the results depend on the processing

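Limma called 0 of the 9 genes in each of the 5 comparisons under every alternative that gave a value. In mutant normal skin against wild type, 8 of 9 genes (all but H2-DMb1) stayed lower under all 17 alternatives (16 for Ciita, which had no value when a probe had to be well above background on all arrays), with medians from -0.71 to -0.37. H2-DMb1 there was at -0.012 under quantile normalization and ran from -0.090 to 0.15 with 1 array left out. Normexp, run on median signals because the files hold no mean signal, gave 0.0053 for H2-Aa in hair loss against mutant normal skin and 0.11 for Ctss in hair loss against wild type. With 1 array left out, the median in hair loss against mutant normal skin ran from -0.41 to 0.26, and single genes from -0.56 to 0.52 (H2-Aa), -0.35 to 0.0097 (H2-Ab1), -0.37 to 0.22 (H2-Eb1), -0.41 to 0.30 (Cd74), -0.79 to 0.44 (H2-DMa), -0.065 to 0.26 (H2-DMb1), -0.60 to 0.12 (H2-Oa), -0.65 to 0.11 (Ciita), -0.59 to 0.089 (Dpt) and -0.0081 to 1.59 (Krt35). In hair loss against wild type the median then ran from -1.004 to -0.32, H2-DMb1 from -0.024 to 0.30 and Ctss from -0.36 to 0.25. The lesion interaction could not be fitted without either hair loss array. The cause of these shifts was not tested.

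With the title number as a replicate block the medians were -0.08, -0.53 and -0.65 in hair loss against mutant normal skin, mutant normal skin against wild type and hair loss against wild type, as without it, with 0 of 9 called. Deviations of same-numbered samples correlated at 0.13, over only 2 numbers, so pairing was not assumed. Over all probes the calls in hair loss against mutant normal skin went from 0 to 9 without hair loss replicate 2 and 11 without mutant normal skin replicate 3. Those in mutant normal skin against wild type went from 211 to 421 with that block, 856 with the slide row as a block, 128 with no filter, 64 with probes well above background on all arrays, 75 without mutant normal skin replicate 4, 116 without replicate 3, 10 when wild type replicate 1 was omitted, and 0 when wild type replicate 2 was or with 1 mean per number and group. In hair loss against wild type they went from 432 to 993, 1332 and 183 with the number block, the row block and no filter, to 2 without hair loss replicate 1, 708 without mutant normal skin replicate 3, 261 without replicate 4, 10 and 0 without wild type replicates 1 and 2, and 0 with 1 mean per number and group.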
